A study of Mus musculus with 2 samples.

Results

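Myoglobin and the blood globins were followed as 6 genes: Mb, which encodes the oxygen-binding protein of muscle, Hba-a1 and Hba-a2, which encode the adult alpha globin chain, Hbb-bs and Hbb-bt, which encode the adult beta globin chain, and Alas2, which encodes the red cell form of the first enzyme of heme synthesis. Every transcript model that carried one of these gene names was taken, which gave 19 models in replicate 1 and 22 in replicate 2, of 72469 and 88667 models listed in those libraries. The 6 genes were among 15508 annotated genes with at least 1 read in either library. The samples were gastrocnemius, a calf muscle of mostly fast fibres, from B6CASTF1/J males aged 36 days; this strain is an F1 hybrid, so that each autosomal gene has 1 allele from each parent and the reads of both alleles were counted on 1 reference. There was 1 group of 2 replicates and no treatment or control group, and each library was made from 2 µg of total RNA. The labels number the males 03 (replicate 1) and 04 (replicate 2) but give both the same donor entry. Ratios are therefore replicate 1 over replicate 2, and each p-value compares these 2 libraries, not conditions. Intervals cover the counting error of reads only. No molecular identifiers were used, so a molecule read more than once could not be told apart.

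Myoglobin binds oxygen within muscle fibres, where it serves as a store and eases its diffusion to mitochondria, and it is most abundant in slow and oxidative fibres and in heart. Hemoglobin is a tetramer of alpha and beta chains made in red cell precursors. Mature red cells have no nucleus, although young circulating ones still hold globin mRNA, so that a bulk muscle library can hold globin reads from the blood in its vessels. Heme, the group that binds oxygen in all of these proteins, is made by a pathway whose first step is catalysed by Alas2 in red cell precursors and by Alas1 elsewhere.

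Sequences bear on 2 of the results that follow, which are the choice of the Mb first exon and the split of reads between near-identical globin genes. RefSeq lists start sites of Mb at 77050668, at 77022787 and at 77022727 on chromosome 15 (build GRCm38.p6, reverse strand). The first lies in the distal first exon, and the others are the starts of the annotated transcripts Mb-203 and Mb-201. Shown are the 150 bases before 77022787 (proximal) and before 77050668 (distal). Models with the proximal first exon had reads and those with the distal one had none. The deposited models hold no ends of single reads, so no read is known to begin at 77022787. Capitals mark matches to 5 motifs: the TATA box, the CCAAT box, the CACCC box, the GATA site and the E-box. The TATA box was searched as TATAA and the E-box as CANNTG. Both strands were searched, and no matches of different motifs overlap in these Mb windows.
Mb proximal, chr15:77022788-77022937: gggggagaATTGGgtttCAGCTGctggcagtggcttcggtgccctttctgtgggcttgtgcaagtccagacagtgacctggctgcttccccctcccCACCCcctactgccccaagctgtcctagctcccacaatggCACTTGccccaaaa
Mb distal, chr15:77050669-77050818: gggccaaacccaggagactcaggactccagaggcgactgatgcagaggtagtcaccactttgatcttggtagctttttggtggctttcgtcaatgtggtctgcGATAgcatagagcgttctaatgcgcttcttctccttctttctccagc

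All 6 genes matched the RefSeq promoter table, which holds 250 bases before and 50 after each start. Over those windows, the proximal Mb promoter had 3 E-boxes, the sequence bound by muscle regulatory factors among many others, and the distal one had 2. An E-box was found in 72.3% of the 32851 promoter windows of the table of all genes. The proximal window held 1 match to CACCC, which 57.5% of windows held, and the distal window held none. Neither Mb window held TATAA, which was found in 24.9% of windows. Each of the 4 globin windows held a TATA box, a CCAAT box (37.4% of windows), a CACCC box and a GATA site (57.9% of windows), and in the alpha windows the GATA site overlaps an E-box. The 150 bases before the starts of Hba-a2 and Hbb-bs are shown because the first 3 of these boxes lie close together in both; the GATA site of Hba-a2 lies further upstream, at -185 from the start, and is not in the bases shown, while Hbb-bs has one at -59.
Hba-a2, chr11:32296342-32296491, forward strand: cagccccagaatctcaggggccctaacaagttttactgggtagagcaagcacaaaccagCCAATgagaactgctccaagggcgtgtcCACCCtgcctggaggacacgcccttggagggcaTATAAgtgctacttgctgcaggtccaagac
Hbb-bs, chr7:103827929-103828078, reverse strand: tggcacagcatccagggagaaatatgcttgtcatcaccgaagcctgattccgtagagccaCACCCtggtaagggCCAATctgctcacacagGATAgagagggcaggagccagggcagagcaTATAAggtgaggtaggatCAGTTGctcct

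The coding sequences of each globin pair differed at 1 base, and that change was synonymous in both pairs. Hba-a1 and Hba-a2 shared 425 of 426 coding bases (99.8%), all 35 bases before the start codon that both annotations hold (that of Hba-a1 begins at 32283511, upstream of its RefSeq start at 32283672), and all 77 bases compared after the coding sequence. Their promoter windows were identical over all 297 bases that could be aligned. Hbb-bs and Hbb-bt shared 440 of 441 coding bases (99.8%), but only 44 of 53 bases before the start codon, 79 of 133 bases after the coding sequence and 168 of 299 promoter bases. On this reference, reads of the beta pair could thus be told apart along both ends. Full-length reads of the alpha pair could be told apart by 1 coding base. The annotated alpha transcripts have different ends. However, the bases by which Hba-a1 begins further upstream lie in promoter sequence that was identical in Hba-a2. The sequences of the parents' alleles were not compared for either pair. Positions are counted from 1 at the first base of the start codon in mm10 transcripts, and the capital marks the base that differs, C381T for the alpha pair and C417T for the beta pair, with the first gene of the pair giving the first letter.
Hba-a1, chr11:32284323-32284363, forward strand: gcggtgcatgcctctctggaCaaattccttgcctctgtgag
Hba-a2, chr11:32297140-32297180, forward strand: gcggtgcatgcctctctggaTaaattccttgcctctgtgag
Hbb-bs, chr7:103826672-103826712, reverse strand: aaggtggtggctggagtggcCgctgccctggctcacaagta
Hbb-bt, chr7:103812663-103812703, reverse strand: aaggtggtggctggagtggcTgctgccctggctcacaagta

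Replicate 1 had 1106945 reads and replicate 2 had 1514119, of which 1036455 and 1374068 lay in annotated mouse genes. Levels are given as CPM, reads in 1000000 of those in annotated genes, with spike-ins left out. A single read was worth about 1 CPM, and the level that a count of 0 allows (3 reads) was 2.89 CPM in replicate 1 and 2.18 CPM in replicate 2. The skeletal muscle markers Ckm, Acta1, Myh4, Tnnt3 and Mylpf together reached 192260 CPM in replicate 1, against 178452 CPM in replicate 2, so the labelled tissue was present in both. The libraries differed in the classes of their reads: incomplete models, which hold a part of an annotated splice chain, took 11.05% of annotated reads in replicate 1 and 16.1% in replicate 2, and genomic models, which follow the genome without an annotated splice chain, took 3.47% and 8.23%. New-junction models took 12.4% in replicate 1 and 4.58% in replicate 2, and they are kept where incomplete and genomic models are left out.

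Mb was the most abundant of the 6 genes in both libraries. It had 680 reads (656 CPM) in replicate 1 and 1453 reads (1057 CPM) in replicate 2, a mean of 857 ± 284 CPM (SD, n = 2). By level it ranked 130 in replicate 1 and 104 in replicate 2 of all 15508 genes. The genes closest to it in both libraries, by the distance of log2(CPM + 1), were Rpl41, a ribosomal protein gene (distance 0.15), Actc1, cardiac actin (0.16), and Ndufv2, a subunit of respiratory complex I (0.18).

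Hba-a1 followed with 157 reads (151 CPM) in replicate 1 and 263 reads (191 CPM) in replicate 2, a mean of 171 ± 28.2 CPM. Hbb-bs had 68 reads (65.6 CPM) in replicate 1 and 133 reads (96.8 CPM) in replicate 2, a mean of 81.2 ± 22.1 CPM. The other alpha gene, Hba-a2, had 45 reads (43.4 CPM) in replicate 1 and 74 reads (53.9 CPM) in replicate 2, a mean of 48.6 ± 7.38 CPM. In both libraries the alpha chain thus had more reads than the beta chain, and 1 gene of each pair had most of them. Hbb-bt had 10 reads (9.65 CPM) in replicate 1 and 21 reads (15.3 CPM) in replicate 2, a mean of 12.5 ± 3.98 CPM. Alas2 had 2 reads in replicate 1 and 3 in replicate 2, which is at or below the level that a count of 0 allows.

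The order Mb, Hba-a1, Hbb-bs, Hba-a2, Hbb-bt, Alas2 was the same in both libraries, and no gene's 2 values overlapped with those of its neighbour in the order. The closest neighbours were Hbb-bs and Hba-a2, where the 95% Wilson interval of Hbb-bs in replicate 1 (51.8 to 83.2 CPM) overlapped that of Hba-a2 in replicate 2 (42.9 to 67.6 CPM). A long read comes from 1 cDNA molecule whatever its length, but shorter molecules can be favoured. Division by length does not correct for that, since it raises short transcripts relative to long ones. As a second scale, levels were also set per kilobase of the leading model that was neither incomplete nor genomic (Mb-203 for Mb). On that scale the means with all models were 776 CPM per kilobase for Mb, 245 for Hba-a1 and 129 for Hbb-bs. They were 87.8 for Hba-a2, 17.7 for Hbb-bt and 1.01 for Alas2, in the same order. The Mb value includes reads of models shorter than Mb-203. Without incomplete and genomic models the means were 336 for Mb and 240 for Hba-a1.

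**Figure D1:**
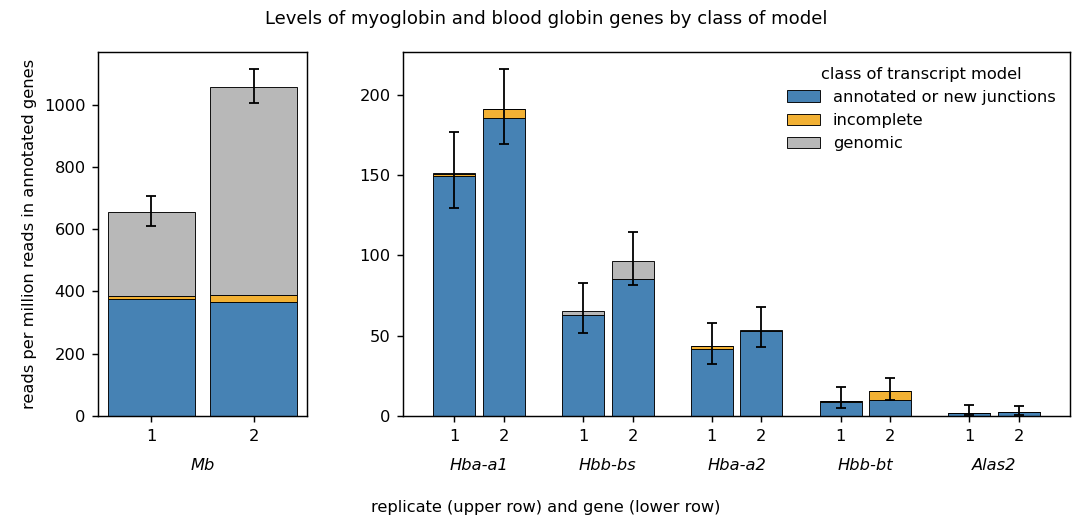
CPM (vertical axis) for each member in replicate 1 and replicate 2, stacked by class of transcript model, with 95% Wilson intervals on the totals; the axes of the left and right panels differ. Mb had 656 CPM in replicate 1 and 1057 CPM in replicate 2, and its genomic part (grey) makes up the difference, while the annotated and new-junction part was 374 and 368 CPM.

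The Mb total rested on 2 models, whose order differed between the libraries: Mb-203 led in replicate 1, with 360 of 680 reads (52.9%, Wilson interval 49.2 to 56.7%), and not in replicate 2, with 460 of 1453 (31.7%, 29.3 to 34.1%). The most abundant Mb model in the sum of both libraries was an unannotated genomic model of 1 exon and 331 bases (chr15:77015487-77015817, mm10), with 279 of 680 Mb reads in replicate 1 (41.0%, Wilson interval 37.4 to 44.8%) and 918 of 1453 in replicate 2 (63.2%, 60.7 to 65.6%). It lies inside the last exon, beginning 111 bases after the end of the coding sequence, so it holds untranslated sequence only. Its level was 269 CPM in replicate 1 and 668 CPM in replicate 2, and the difference, 2.48-fold higher in replicate 2, exceeded the counting error (log2 ratio -1.31, 95% interval -1.51 to -1.12).

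The fully spliced transcript did not follow it. Mb-203, with 3 exons and 1104 bases, had 360 reads (347 CPM) in replicate 1 and 460 reads (335 CPM) in replicate 2, and its log2 ratio was 0.05 (-0.15 to 0.26). Summed over annotated and new-junction models, Mb stood at 374 CPM in replicate 1 and 368 CPM in replicate 2, a mean of 371 ± 4.83 CPM, and ranked 209 in both libraries. The spread between the replicates was thus 284 CPM with all models and 4.83 CPM without incomplete and genomic ones.

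Both ends of the 331-base model coincide with annotated exon ends, as did 31.7% of single-exon genomic models in replicate 1, with 44.0% of their reads, and 28.5% in replicate 2, with 52.7% of their reads. The deposited models hold no ends of single reads, so where these Mb reads began and ended within a few bases is not known from them. The 331 bases were 20.8% A, with a longest run of 4 A. The polyadenylation signal AATAAA lies within the last 30 bases of Mb-203, shown because the single-exon model also ends just beyond them (the signal is in capitals).
Mb-203 3' end, chr15:77015491-77015520, reverse strand: ccttgtctcAATAAAatatcctgcgagtcc

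Mb stood high among genes in its genomic share. Of 2109 genes with at least 50 reads in replicate 1, 77 (3.65%) had a genomic share at or above that of Mb, where the median gene had 0.909%. In replicate 2 it was 211 of 2380 genes (8.87%), with a median of 1.67%. By number of genomic reads Mb ranked 12 in replicate 1 and 14 in replicate 2. The globins had smaller genomic shares. Genomic models held 1 of 157 Hba-a1 reads in replicate 1 and 0 of 263 in replicate 2, and 0 of 45 Hba-a2 reads in replicate 1 and 1 of 74 in replicate 2. They held 3 of 68 Hbb-bs reads (4.41%, 1.51 to 12.2%) in replicate 1 and 16 of 133 (12.0%, 7.54 to 18.6%) in replicate 2. The Hbb-bs ones were a single model of 195 bases at the end of the last exon. Hbb-bt and Alas2 had no genomic reads.

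**Figure D2:**
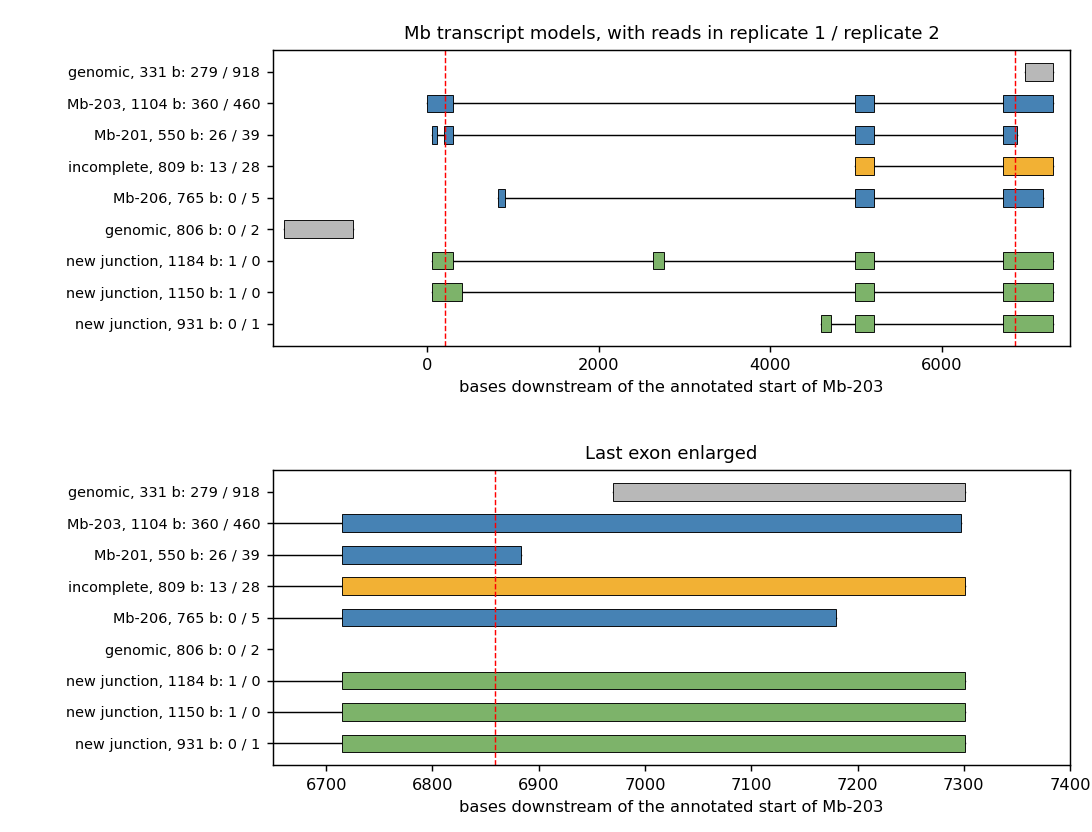
All Mb transcript models of either library drawn to scale by distance from the annotated start of Mb-203 (horizontal axis, bases), with boxes for exons, dashed lines at the start and end of the coding sequence, and the reads in replicate 1 and replicate 2 beside each name. Blue models are annotated, grey are genomic, yellow is incomplete and green have a new junction; the 331-base model with 279 and 918 reads lies downstream of the coding sequence.

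The use of Mb first exons was read from models with an annotated or new junction, of which Mb had 388 reads in replicate 1 and 505 in replicate 2. GENCODE lists 6 Mb transcripts. Mb-202 and Mb-205 begin in the distal first exon and Mb-204 in another exon upstream of the proximal one, and none of these 3 had a read in either library, which allows a share of up to 0.773% in replicate 1 and 0.594% in replicate 2. The proximal first exon with its splice donor at 77022489 (299 bases in Mb-203, up to 77022787) took 361 of 388 reads in replicate 1 (93.0%, 90.1 to 95.2%) and 460 of 505 in replicate 2 (91.1%, 88.3 to 93.3%).

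A shorter first exon was the second choice in both libraries. Mb-201 splices an 80-base intron out of that same first exon and has its annotated start at 77022727 in place of 77022787, and it had 26 reads in replicate 1 (6.70%, 4.61 to 9.64%) and 39 in replicate 2 (7.72%, 5.70 to 10.4%). The intron ends 9 bases before the start codon, so Mb-201 and Mb-203 encode the same protein from 462 coding bases without the stop. The intron begins with GT and ends with AG, shown in capitals with flanking bases because a splice across it marks Mb-201. A read that began within or after this intron would show no such splice, so its lack does not by itself mark Mb-203. How many such reads there were was not tested, so the split between Mb-201 and Mb-203 is uncertain.
Mb-201 first intron, donor side, chr15:77022660-77022679: ctgggaagGTataaaagccc
Mb-201 first intron, acceptor side, chr15:77022584-77022603: tgtcctctttAGaagccacc

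The letters TATAA occur once in the first exon of Mb-203, after its first 117 bases and at the donor side of this intron, so the annotated start lies upstream of them. Mb-206, whose first exon (77021887 to 77021963) lies in the intron after the proximal exon and whose coding sequence is shorter at 297 bases, had 0 reads in replicate 1 and 5 in replicate 2 (0.990%, 0.424 to 2.30%). A new donor at 77022387 had 1 read in replicate 1 and 0 in replicate 2, and a new first exon with its donor at 77018075 had 0 reads in replicate 1 and 1 in replicate 2. All first exons that overlap the proximal one together held 388 of 388 reads in replicate 1 and 499 of 505 (98.8%) in replicate 2. The share of the leading first exon did not pass the test of a difference between the libraries (Fisher's exact test with Benjamini-Hochberg adjustment over 1356 genes, adjusted p = 1; 29 genes, or 2.14%, passed). Of the other members, Hba-a1 and Hbb-bs had enough reads for this test and neither passed, with leading shares of 97.4% and 93.8% in replicate 1 and 98.0% and 93.2% in replicate 2.

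The share of incomplete models was compared next. For Mb they held 13 of 401 reads in replicate 1 (3.24%, 1.90 to 5.47%) and 28 of 533 in replicate 2 (5.25%, 3.66 to 7.49%), all in a 2-exon model of 809 bases that lacks the first exon. This difference of -2.01 percentage points lay at the median of all genes, -2.07 points. None of the 3 members tested (Mb, Hba-a1, Hbb-bs) passed the test, where 426 of 1644 genes (25.9%) did (Fisher's exact test with Benjamini-Hochberg adjustment; Mb adjusted p = 0.367). Hba-a1 had 1 of 156 such reads in replicate 1 and 8 of 263 in replicate 2, and Hbb-bs had none in either library.

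With genomic reads counted as incomplete, the Mb share was 42.9% in replicate 1 and 65.2% in replicate 2 (Fisher's exact test with Benjamini-Hochberg adjustment, adjusted p = 1.14e-20), so that 1 of 3 members passed, where 755 of 1834 genes (41.2%) did. The difference for Mb, -22.3 points, was reached or exceeded in that direction by 16.5% of genes, against a median of -5.95 points. The Mb shift thus had the direction of the median gene's and was larger.

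Most globin reads belonged to annotated transcripts. Hba-a1-201, with 3 exons, had 151 of 157 Hba-a1 reads in replicate 1 (96.2%) and 250 of 263 in replicate 2 (95.1%). Hba-a2-201 had 42 of 45 reads in replicate 1 (93.3%) and 72 of 74 in replicate 2 (97.3%). Hbb-bs-201 had 61 of 68 reads in replicate 1 (89.7%) and 109 of 133 in replicate 2 (82.0%). Annotated transcripts that keep sequence of the first intron had few reads, with 4 and 5 reads of Hba-a1-202, 1 and 1 of Hba-a2-202, and 4 and 6 of Hbb-bs-202 in replicate 1 and replicate 2. Hbb-bt had 9 reads of Hbb-bt-201 in replicate 1 and 13 in replicate 2. Its other reads were mainly the last exon alone, a single-exon incomplete model of 261 bases with 0 reads in replicate 1 and 7 in replicate 2. Both beta genes had 1 read in replicate 2 of a model whose first exon ran 4 bases longer at the donor (149 against 145 bases in Hbb-bs, 223 against 219 in Hbb-bt). The 5 Alas2 reads all belonged to Alas2-201, with 11 exons and 2037 bases on chromosome X, and so were spliced end to end.

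Within each globin pair the split of reads was alike in the libraries. Hba-a1 took 157 of 202 alpha reads in replicate 1 (77.7%, 71.5 to 82.9%) and 263 of 337 in replicate 2 (78.0%, 73.3 to 82.1%), a ratio to Hba-a2 of 3.49 in replicate 1 and 3.55 in replicate 2. Hbb-bs took 68 of 78 beta reads in replicate 1 (87.2%, 78.0 to 92.9%) and 133 of 154 in replicate 2 (86.4%, 80.1 to 90.9%). Since the transcripts of the alpha genes differ by 1 coding base, their split depends on the authors' alignment of each read and on the alleles of both parents, and is uncertain. How far the alignment sets it was not tested.

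Alpha and beta reads were not in a 1 to 1 ratio. Alpha genes took 202 of 280 adult globin reads in replicate 1 (72.1%, 66.6 to 77.1%) and 337 of 491 in replicate 2 (68.6%, 64.4 to 72.6%), 2.59 alpha reads per beta read in replicate 1 and 2.19 in replicate 2. The intervals of the libraries overlap. Together the 4 adult globin genes reached 270 CPM in replicate 1 and 357 CPM in replicate 2, a mean of 314 ± 61.6 CPM. Mb had 2.43 reads per adult globin read in replicate 1 and 2.96 in replicate 2, but 1.43 and 1.100 with annotated and new-junction models alone, so which library had the higher ratio depended on the genomic model.

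**Figure D3:**
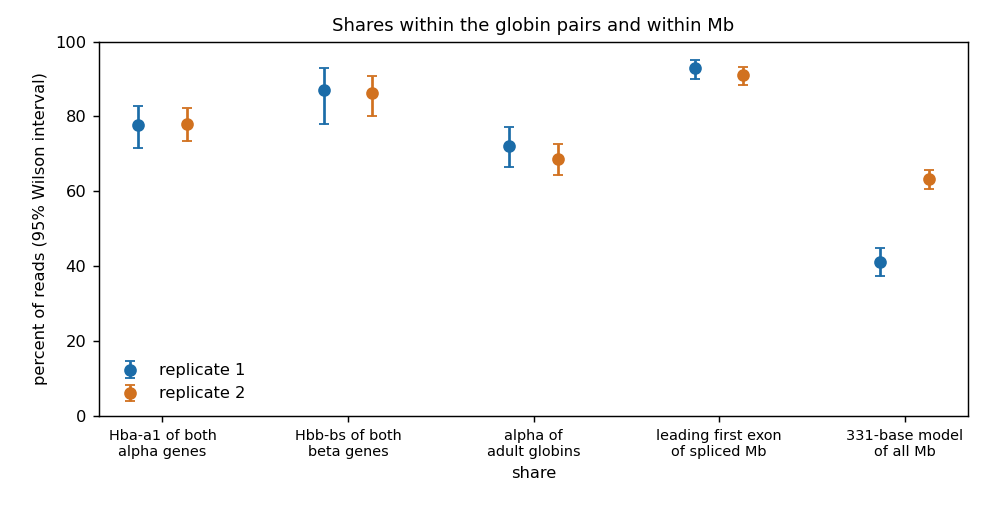
Shares of reads in percent (vertical axis) with 95% Wilson intervals, for replicate 1 (blue) and replicate 2 (orange): Hba-a1 within the alpha pair, Hbb-bs within the beta pair, alpha within adult globins, the leading first exon within spliced Mb, and the 331-base model within all Mb reads. The intervals overlap for the first 4 shares, and not for the last, at 41.0% in replicate 1 and 63.2% in replicate 2.

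Between the libraries, levels were compared with an exact binomial test of each gene's 2 counts, with Benjamini-Hochberg adjustment over 8339 genes with at least 10 reads in sum, and a gene was called at an adjusted p under 0.05 and a difference of at least 2-fold. Of the 5 members tested none was called, where 1458 of 8339 genes (17.5%) were; 3161 genes had an unadjusted p under 0.05, among them Mb, Hba-a1 and Hbb-bs. Alas2 had too few reads to be tested. When incomplete and genomic models were left out, 0 of 5 members were called, where 1551 of 6808 genes (22.8%) were. The median gene had a log2 ratio of 0.28, that is a higher level in replicate 1, and TMM scaling moved it to 0.02.

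Mb was 1.61-fold higher in replicate 2 with all models (log2 ratio -0.69, 95% interval -0.82 to -0.56; exact binomial test, adjusted p = 3.61e-24), short of the 2-fold limit. It did not pass the exact binomial test once the genomic and incomplete models were left out of all genes, at a log2 ratio of -0.15 (-0.34 to 0.04; adjusted p = 0.251), or once the genomic models alone were, at -0.08 (-0.27 to 0.11; adjusted p = 0.611). These ratios are scaled to the reads of the models kept, whereas the 374 CPM in replicate 1 and 368 CPM in replicate 2 given above are scaled to all reads in annotated genes, so the sign of this small difference depends on the scaling. Set against the median gene, Mb lay below it in each case.

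The 4 globins were lower in replicate 1 by total reads, with log2 ratios between -0.30 and -0.63, but above 0 with a trend on transcript length removed, between 0.03 and 0.45. Hbb-bs had an adjusted p under 0.05 by the exact binomial test, at a log2 ratio of -0.56 (-1.0 to -0.13; adjusted p = 0.0374), and this was 0.15 (-0.30 to 0.57; adjusted p = 0.855) with the length trend removed. The adjusted p of Hbb-bs was also above 0.05 without genomic models (0.0663) and without the filter on low counts (0.0689). By the same test it was under 0.05 with TMM scaling (0.00101) and with DESeq2 size factors (0.000787), at log2 ratios of -0.81 and -0.83. Without incomplete and genomic models it was also under 0.05 (0.0223), at a log2 ratio of -0.61. Hba-a1 had a log2 ratio of -0.34 (-0.63 to -0.05; exact binomial test, adjusted p = 0.0709), and its adjusted p was under 0.05 with TMM scaling (0.000374), with DESeq2 size factors (0.00025), without incomplete and genomic models (0.00458) and without genomic models (0.0157), at log2 ratios of -0.59, -0.60, -0.49 and -0.42. By total reads the log2 ratio of Hba-a2 was -0.30 (-0.88 to 0.24; exact binomial test, adjusted p = 0.475) and that of Hbb-bt was -0.63 (-1.91 to 0.49; adjusted p = 0.489). The trend over all genes with at least 50 reads was a log2 ratio of -0.66 at the length of the leading Hba-a1 model (699 bases), -0.70 at that of Hbb-bs (628 bases) and -0.37 at that of Mb (1104 bases). Since the sign of the globin ratios changed with the length trend removed, no direction is read from them. In a bulk sample the number of red cells and the globin RNA per cell cannot be told apart.

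**Figure D4:**
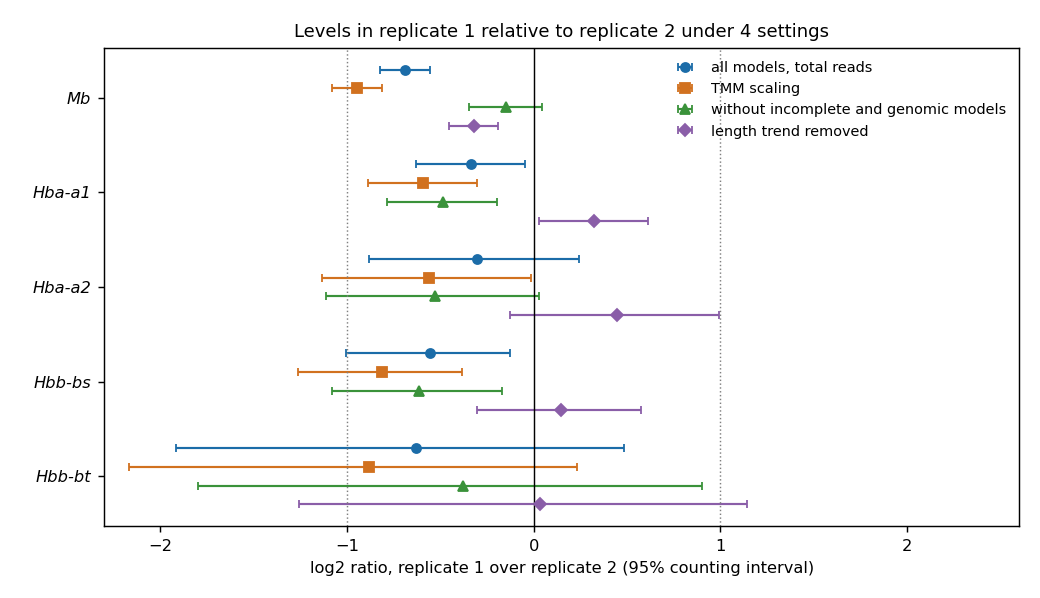
Log2 ratio of replicate 1 over replicate 2 (horizontal axis) of 5 members with 95% counting intervals, under 4 settings given by symbol and colour, with dotted lines at 2-fold. Mb was at -0.69 with all models and at -0.15 without incomplete and genomic models, and the 4 globins were below 0 in the first 3 settings and above 0 with the length trend removed.

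Red cell genes other than the globins were scarcely seen. Of 18 genes of the erythroid list, 14 had no read in either library, among them Slc4a1 (the anion exchanger of the red cell membrane), Gata1 and Klf1 (transcription factors of red cell precursors) and Ahsp (the alpha globin chaperone). The summed level of the list was 217 CPM in replicate 1 and 253 CPM in replicate 2, nearly all of it from genes that other cells also express: Bpgm had 143 CPM in replicate 1 and 210 CPM in replicate 2, and Sptb had 63.7 CPM and 42.2 CPM. Of the 3 genes tested 1 was called, where 17.5% of all genes were, too few to set against that share: Car1, a carbonic anhydrase of red cells, had 11 reads in replicate 1 and 0 in replicate 2, which is at least 4.86-fold higher in replicate 1 if replicate 2 is set to 3 reads (exact binomial test, adjusted p = 0.00129). The list's median log2 ratio over the 3 tested genes was 0.59, against 0.28 over all genes. By total reads Car1 was thus on the other side of 0 from the globins, which were above 0 with the length trend removed.

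Of 12 white cell and platelet genes, 8 had no read, among them Ptprc, S100a8 and Ppbp. None of the 2 tested was called, where 17.5% of all genes were, too few to set against that share. Lyz2, lysozyme of myeloid cells, had 52.1 CPM in replicate 1 and 40.0 CPM in replicate 2, Pf4, a platelet chemokine, had 19.3 CPM and 9.46 CPM, and Itga2b, a platelet integrin chain, had 1 read in each. Of 11 other globin genes, 10 had no read, including the embryonic Hba-x, Hbb-y and Hbb-bh1 and the neuronal Ngb. Cytoglobin, Cygb, which is expressed in fibroblast-like cells, had 7 reads in replicate 1 and 11 in replicate 2 (6.75 and 8.01 CPM).

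All 9 heme synthesis genes had reads, although Alas2 was at or below the level that a count of 0 allows. None of the 8 tested was called, where 17.5% of all genes were. So few genes cannot be set against that share. Alas1, the form of the first enzyme outside red cells, had 270 CPM in replicate 1 and 203 CPM in replicate 2, a mean of 237 ± 47.5 CPM, while Alas2 stood at 2.06 ± 0.18 CPM. Urod, which catalyses the fifth step, had 83.0 CPM in replicate 1 and 146 CPM in replicate 2. The log2 ratio of Urod was -0.81 with all models but 0.20 without incomplete and genomic ones. Fech, which inserts the iron, had 140 CPM in replicate 1 and 85.9 CPM in replicate 2. The median log2 ratio of the list was 0.53.

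Among heme and iron handling genes, 3 of 14 tested were called, a share near the 17.5% of all genes. Aco1, the cytosolic aconitase that doubles as an iron sensor, was higher in replicate 1 (22.2 CPM in replicate 1 and 7.28 CPM in replicate 2), and Blvra, a biliverdin reductase (9.65 CPM and 27.7 CPM), and Abcb10, a mitochondrial transporter (17.4 CPM and 37.1 CPM), were higher in replicate 2. The direction of Abcb10 depended on the models kept. Its log2 ratio was -1.07 with all models and 0.68 without incomplete and genomic ones. Without those models Aco1 (1.75) and Blvra (-1.79) kept their sign. The most abundant genes of the list were not called: Fth1, ferritin heavy chain, at 2316 CPM in replicate 1 and 3180 CPM in replicate 2, Ftl1, ferritin light chain, at 220 CPM and 199 CPM, and Pcbp1, an iron chaperone, at 98.4 CPM and 72.0 CPM. Hmox1, the inducible heme oxygenase, had no read.

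Myoglobin is a marker of slow and oxidative fibres, and 8 of the 14 genes of such a list were called, all higher in replicate 2, against 461 of 8339 genes (5.53%) in that direction. The list's median log2 ratio was -1.05, against 0.28 over all genes and -0.69 for Mb. Its most abundant members were Cox6a2, a subunit of cytochrome oxidase (1967 CPM in replicate 1 and 4070 CPM in replicate 2), Fabp3, a fatty acid carrier (900 CPM and 2175 CPM), and Cox7a1, another subunit of that oxidase (546 CPM and 1456 CPM). Further called genes were Tnnt1, slow troponin T (232 CPM and 1203 CPM), Tnnc1, slow troponin C (64.6 CPM and 231 CPM), Myl3, a slow myosin light chain (88.8 CPM and 235 CPM), and Tpm3, slow tropomyosin (95.5 CPM and 222 CPM). The other 6 genes of the list were not called, and 4 of them, named after their values were seen, had log2 ratios above 0. Myh2, the myosin of fast oxidative fibres, had 432 CPM in replicate 1 and 248 CPM in replicate 2 (log2 ratio 0.80; exact binomial test, adjusted p = 2.82e-13), short of the 2-fold limit. Atp2a2, the slow calcium pump, had 58.9 CPM in replicate 1 and 36.4 CPM in replicate 2 (0.69). Myh7, the slow myosin, had 75.3 CPM in replicate 1 and 67.7 CPM in replicate 2 (0.15), and Casq2, a calcium store protein, had 30.9 CPM and 28.4 CPM (0.13); with TMM scaling these last log2 ratios turned to -0.10 for Myh7 and -0.13 for Casq2. The leading models of the 8 called genes were 393 to 1139 bases long, those of the 4 genes above 0 were 6083 bases (Myh2), 3984 (Atp2a2), 6135 (Myh7) and 2556 (Casq2), and that of Mb 1104, and the part of transcript length in this list was not tested. Leaving out incomplete and genomic models, where Mb stood at -0.15, left the 8 called genes between -1.98 (Tnnc1) and -1.11 (Cox6a2), Myh2 at 1.97, Myh7 at 1.32, Atp2a2 at 1.13 and Casq2 at 0.23.

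The genes closest to Hbb-bs in level over the 2 libraries were Neurl2 (distance 0.03 in log2(CPM + 1)), Gapdh (0.04) and Pnkd (0.06), with 67 reads each in replicate 1 and 131, 130 and 138 reads in replicate 2.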

How the data were processed

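Bulk long-read RNA sequencing of gastrocnemius gave 1 table of read counts per transcript model and 1 set of exon coordinates for each of 2 libraries. The counts are whole reads, deposited by the authors without normalization. Per the file headers and labels, models were built with TALON on mm10 against GENCODE M21; the aligner is not given in the sources used here. TALON sorts models as annotated (known), new combination of annotated junctions, new junction, incomplete, or genomic.

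Counts were summed per gene and scaled to reads in annotated genes, without spike-ins. Levels of the 2 libraries were compared across all genes by a two-sided exact binomial test (the smaller tail doubled), and shares by Fisher's exact test, each with Benjamini-Hochberg adjustment over all genes tested (scipy 1.17.1). 0.5 reads were added to each count for ratios. edgeR 4.0.16 gave TMM factors and DESeq2 1.42.0 size factors as alternatives; with 1 library a side their tests have no residual degrees of freedom. A lowess trend (fraction 0.3, statsmodels 0.14.6) on leading-model length was the length alternative. The tests were tested on simulated data. Shares have 95% Wilson intervals, and ratios of levels exact ones.

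The members and gene lists were chosen with earlier results of these data known. Named beyond the members were, of each list, the 3 genes with the highest mean CPM and up to 4 further called ones with the smallest adjusted p, and the 3 genes nearest in level to Mb and to Hbb-bs. Genes named as having no read, and those of the slow fibre list above 0, were chosen after their values were seen. Nothing says whether the replicates' RNA was extracted apart beyond their labelling as biological replicates. Protein sequences and a genome were not used here; promoters are from RefSeq (GRCm38.p6) and transcripts from GENCODE M21.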

Additional observations from a re-analysis of the deposited data

Results flagged for a closer look

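Unannotated models on the strand opposite Mb, within its annotated limits (chr15:77015487-77050670), held 1 read in replicate 1 and 4 reads in replicate 2. The value in replicate 2 lies just above the limit of 3 reads that a count of 0 allows, and there are no control samples to set it against. These reads enter no value of Mb. The other 5 genes had no such reads in either library.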

How the results depend on the processing

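In all 8 settings run, 0 members were called. The log2 ratio turned above 0 with the trend on length removed for Hba-a1 (0.33), Hba-a2 (0.45), Hbb-bs (0.15) and Hbb-bt (0.032), since that trend was below 0 at their lengths. The number of genes called was 1289 to 1682 against 1458, but their split changed with scaling: 997 were higher in replicate 1 and 461 in replicate 2 by total reads, against 542 and 801 with TMM factors, and 534 and 840 with size factors; with the length trend removed 705 of 8120 genes were called. The setting without genomic models was chosen after seeing the data.

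With incomplete and genomic models left out the mean level of Mb was 371 CPM. Per kilobase the means with all models were 776 for Mb, 245 for Hba-a1, 87.8 for Hba-a2, 129 for Hbb-bs, 17.7 for Hbb-bt and 1.01 for Alas2. Without incomplete and genomic models the mean of Mb per kilobase was 336. The mean Hbb-bs share of beta reads was 88.6% without incomplete and genomic models and 88.8% with annotated models alone, against 86.8%. The mean share of the leading Mb first exon was 99.4% when overlapping first exons were joined and 88.2% with incomplete models, against 92.1%. Genes whose leading first exon differed fell to 19 with annotated models alone, against 29, and genes whose incomplete share differed came to 755 with genomic models counted in, against 426.

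Leaving out 1 replicate gave mean levels of 656 to 1057 CPM for Mb, 151 to 191 for Hba-a1, 43.4 to 53.9 for Hba-a2, 65.6 to 96.8 for Hbb-bs, 9.65 to 15.3 for Hbb-bt and 1.93 to 2.18 for Alas2, and shares of 77.7 to 78.0% for Hba-a1, 86.4 to 87.2% for Hbb-bs, 68.6 to 72.1% for alpha and 91.1 to 93.0% for the leading Mb first exon. No paired analysis was possible because there is 1 group. Hbb-bt, with 10 reads in replicate 1 and 21 in replicate 2, had a wide interval (log2 ratio -1.91 to 0.49), and Alas2 had too few reads to be tested.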
